A study of Mus musculus with 18 samples.

Results

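The cytosolic ribosomal protein genes encode the proteins of the ribosome that translates nuclear messages. They were taken as the protein-coding genes whose mouse symbol is Rpl or Rps followed by a digit, together with Rplp0, Rplp1, Rplp2 and Rpsa. Symbols with -ps, the Rps6k kinases, Rps3a2 and Rps3a3 were left out. The rule gave 86 genes of the 35275 gene identifiers measured, among them 31 proteins of the small (40S) subunit, 43 of the large (60S) subunit, 3 of its stalk and 8 paralogs. The remaining gene, Rps19bp1, encodes a nucleolar protein that binds a ribosomal protein and matches by its symbol alone. RNA was measured by paired-end sequencing in regulatory T cells (Treg), CD4+ T cells that express Foxp3 and restrain immune responses, from male mice of 6 to 8 weeks. All 18 libraries carry the Foxp3YFPcre allele, which makes Cre recombinase and YFP in cells that express Foxp3. The 3 libraries labelled wild type carry that allele alone, and the libraries labelled Dyrk1, HDAC1, HDAC2, Mef2c and Mef2d, 3 each, come from mice that also carry floxed alleles of the named gene. The label Dyrk1 does not say whether Dyrk1a or Dyrk1b was floxed. Cre acts from the Foxp3 locus, so that deletion was directed at Foxp3+ cells. CD4+ cells were selected on a column and YFP+ cells sorted from them, and replicates are described as independent biological samples.

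Ribosomal proteins are made in near equal numbers and assembled on ribosomal RNA in the nucleolus, and growing lymphocytes spend much of their transcription on them. Their messages open with a tract of pyrimidines (the TOP motif), through which the growth kinase mTORC1 and the protein Larp1 control their translation and stability. Free ribosomal proteins, Rpl5 and Rpl11 above all, bind Mdm2 and stabilise Trp53, so that ribosome assembly is coupled to a stress response.

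Levels are in FPKM, fragments counted on a gene, scaled for its length and for the size of the library, a per-length scale on which genes can be compared. The libraries held an estimated 15.9 to 24.1 M reads each, worked out from the steps between low values. In a knockout design the targeted genes check the labels. Hdac1 was at 32.0 ± 4.34 FPKM in libraries labelled HDAC1 and 119 ± 3.05 in wild type (mean ± SD, n = 3, as throughout). The other targets were not lower over the whole gene: Hdac2 was at 27.9 ± 0.937 FPKM in libraries labelled HDAC2 and 28.3 ± 0.519 in wild type, and Mef2d at 53.4 ± 0.561 in libraries labelled Mef2d and 41.7 ± 4.59 in wild type. Mef2c was at 1.27 ± 0.594 in libraries labelled Mef2c and 0.476 ± 0.151 in wild type, and Dyrk1a and Dyrk1b were at 33.1 ± 2.58 and 11.8 ± 0.789 in libraries labelled Dyrk1 against 27.7 ± 1.46 and 7.0 ± 0.466. A level over a whole gene does not show whether a floxed exon was removed, so these groups are named by their labels, and a deletion library below is one so labelled. Foxp3 ranged from 82.5 to 118 FPKM over all libraries. The summed level of 7 plasma cell markers was 564 to 1739 FPKM in wild type, 2109.6 to 6374 in HDAC1 and 3530.4 to 10831 in HDAC2 libraries, all 7 being above 0 in every group, and its part in the results was not tested. B cell markers, 8 in number and all above 0 in every group, summed to 472 to 1258 FPKM in wild type and 489 to 1231, 874 to 2364, 695 to 1521, 642 to 884 and 433 to 1247 in Dyrk1, HDAC1, HDAC2, Mef2c and Mef2d libraries. By the mean of their log2 levels, Dyrk1 replicate 1, Mef2c replicate 1 and Mef2d replicate 1 stood over 1 above the median library on the log2 scale.

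The members were among the most abundant messages of these cells. In wild type 56 of the 86 averaged at least 1000 FPKM, 21 lay from 100 to under 1000 and 9 were under 100. The highest was Rps27, a zinc-binding protein of the 40S subunit, at 8785, 8622 and 8294 FPKM in the 3 wild-type libraries. It was followed by Rplp1, one of the acidic stalk proteins that recruit elongation factors, at 4809, 4662 and 5069.9, and by Rps14, a protein of the 40S platform, at 4294, 3781 and 4401. The lowest Rplp1 value lay above the highest of Rps14, and all 3 genes kept their order in each wild-type library.

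The lowest values belonged mostly to paralogs. Rpl10l, a testis paralog of the X-linked Rpl10, was listed at 0 in 17 of 18 libraries. Rpl3l, the striated muscle paralog of Rpl3, did not exceed 0.388 FPKM. These 2 genes did not reach 1 FPKM in 3 libraries and were not tested, which left 84 members. Rpl39l averaged 1.58 ± 1.19 FPKM in wild type against 1290.2 ± 41.8 for Rpl39, and Rpl7l1, a nucleolar relative of Rpl7, 42.0 ± 3.83 against 1119 ± 29.7. Rpl36al, at 179 ± 8.95, was below Rpl36a at 872 ± 42.4, whereas Rpl22l1, at 267 ± 7.36, was slightly above Rpl22 at 241 ± 3.33. Rps27l was at 84.6 ± 14.3. Rps27rt was at 35 ± 4.29, and 89.5% of its 100-base stretches are also in Rps27, so its reads cannot be told apart from those of Rps27 with certainty. Rpl24, a 60S protein of every ribosome, was listed at only 1.93 ± 0.669 FPKM; 80.1% of its 100-base stretches occur in other annotated genes, and 66.8% of all its stretches in Gm28037 at the same locus, so its value is not a usable level.

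In every deletion library the members took a smaller share of the total than in every wild-type library. Their share of summed FPKM was 26.8%, 25.8% and 26.9% in the 3 wild-type libraries. It was 23.0%, 23.3% and 24.5% in HDAC1, 23.6%, 23.3% and 24.6% in Mef2c and 22.8%, 24.9% and 24.8% in Mef2d libraries. The ranges of these 3 groups overlapped one another, and each lay below wild type. Dyrk1 libraries gave 24.1%, 24.6% and 20.6%, and HDAC2 libraries 22.9%, 18.7% and 23.8%. In each of these groups 1 library, Dyrk1 replicate 3 and HDAC2 replicate 2, lay below all other libraries of the study. The group means were 26.5% ± 0.645 in wild type, 23.1% ± 2.19 in Dyrk1, 23.6% ± 0.807 in HDAC1, 21.8% ± 2.72 in HDAC2, 23.8% ± 0.681 in Mef2c and 24.2% ± 1.17 in Mef2d. All comparisons with wild type use the same 3 control libraries, so a high wild-type library makes the deletion groups look lower in all of them. In bulk RNA, fewer cells of a type and less RNA per cell cannot be told apart.

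**Figure D1:**
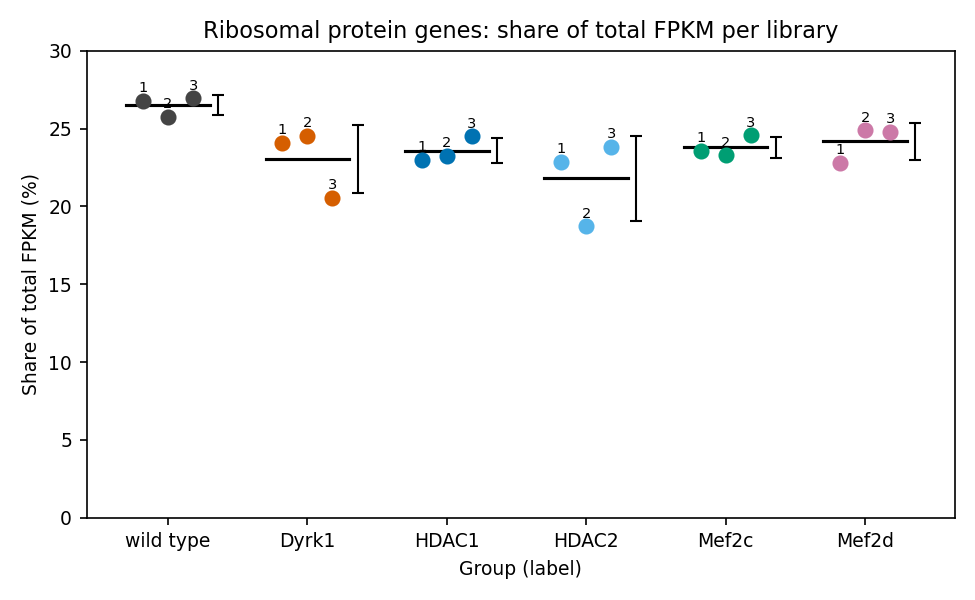
Share of the summed FPKM of each library (vertical axis, percent) taken by the 86 ribosomal protein genes, by group (horizontal axis); points are libraries numbered by replicate, bars are group means and whiskers 1 SD. The wild-type libraries lie from 25.8% to 26.9%, above the other 15, and Dyrk1 replicate 3 and HDAC2 replicate 2 are the lowest at 20.6% and 18.7%.

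Set against the wild-type mean of each gene, the median member was at -0.29, -0.20 and -0.17 on the log2 scale in the HDAC1 libraries, -0.23, -0.23 and -0.09 in Mef2c and -0.26, -0.16 and -0.12 in Mef2d. The corresponding medians were -0.17, -0.18 and -0.52 in Dyrk1 and -0.28, -0.51 and -0.18 in HDAC2 libraries.

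In the 2 lowest libraries short transcripts were the lowest. In Dyrk1 replicate 3 the median ratio was -0.68 for the 28 members with the shortest main transcripts (345 to 732 bases), -0.49 for the middle 28 and -0.41 for the 28 longest. In HDAC2 replicate 2 these medians were -0.74, -0.46 and -0.41. Across the 84 members Spearman's rho between length and ratio was 0.48 and 0.59 in these libraries, and -0.26 to 0.37 in the other 16, the highest of these being HDAC1 replicate 1, a description over genes of 1 library each. Rps27, whose main transcript is the shortest, was at 3945 FPKM in Dyrk1 replicate 3 and 3794 in HDAC2 replicate 2, against 8294 to 8785 in wild type. Rps29 was at 1301 and 1031 there, against 2318 to 2329. In the other 4 libraries of these groups Rps27 was at 7330.1 to 9769.7 FPKM and Rps29 at 2293 to 2851. What separates these 2 libraries was not tested.

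**Figure D2:**
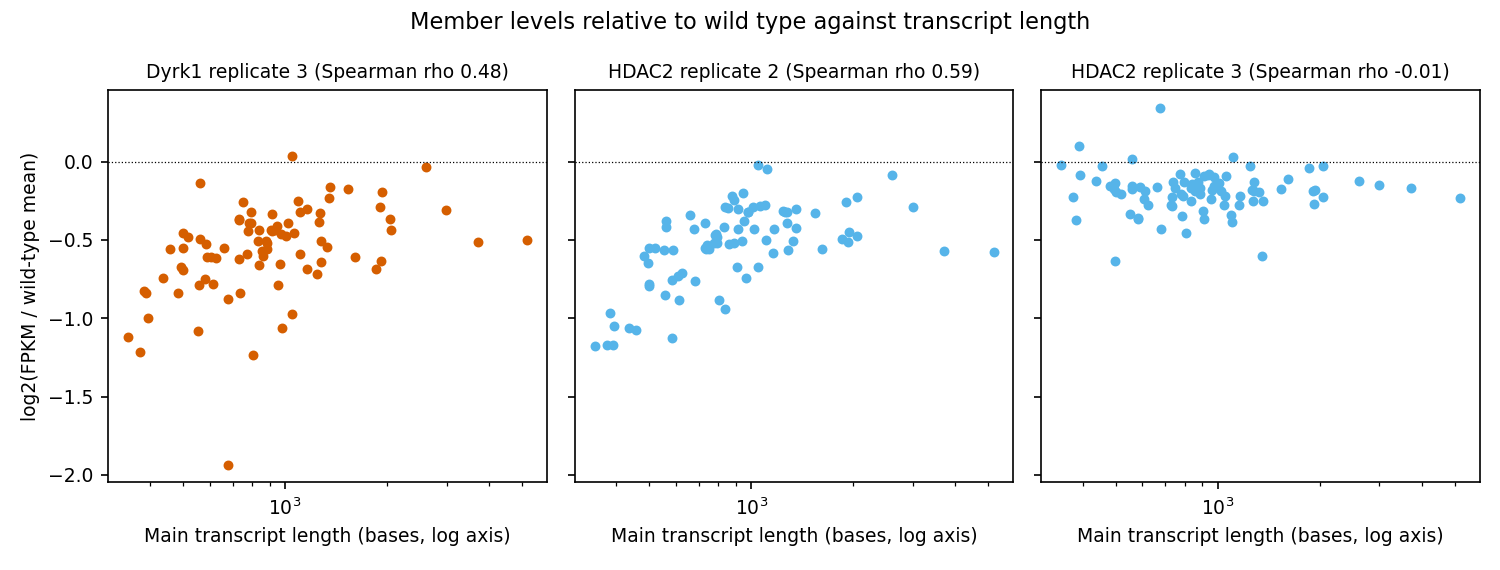
Ratio of each of the 84 tested members to its wild-type mean (vertical axis, log2) against the length of its main transcript (horizontal axis, bases, log scale) in Dyrk1 replicate 3, HDAC2 replicate 2 and HDAC2 replicate 3; each point is a gene. Short transcripts lie lowest in the first and second panels (rho 0.48 and 0.59) and not in the third (rho -0.01).

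The steadiest members within groups were Rps3, Rpl5, Rpl7l1 and Rpl4, with a pooled within-group SD of 0.05 to 0.06 on the log2 scale. Rpl29 (0.66), Rpl34 (0.46), Rps29 (0.43) and Rps27 (0.42) varied most. Rps29 and Rps27 were lowest in the 2 libraries above, but HDAC1 replicate 1 and Mef2c replicate 2 were also low within their groups, with Rps27 at 6103 and 5845 FPKM. Rpl29 and Rpl34 spread most within the Mef2c and Mef2d groups, described below.

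**Figure D3:**
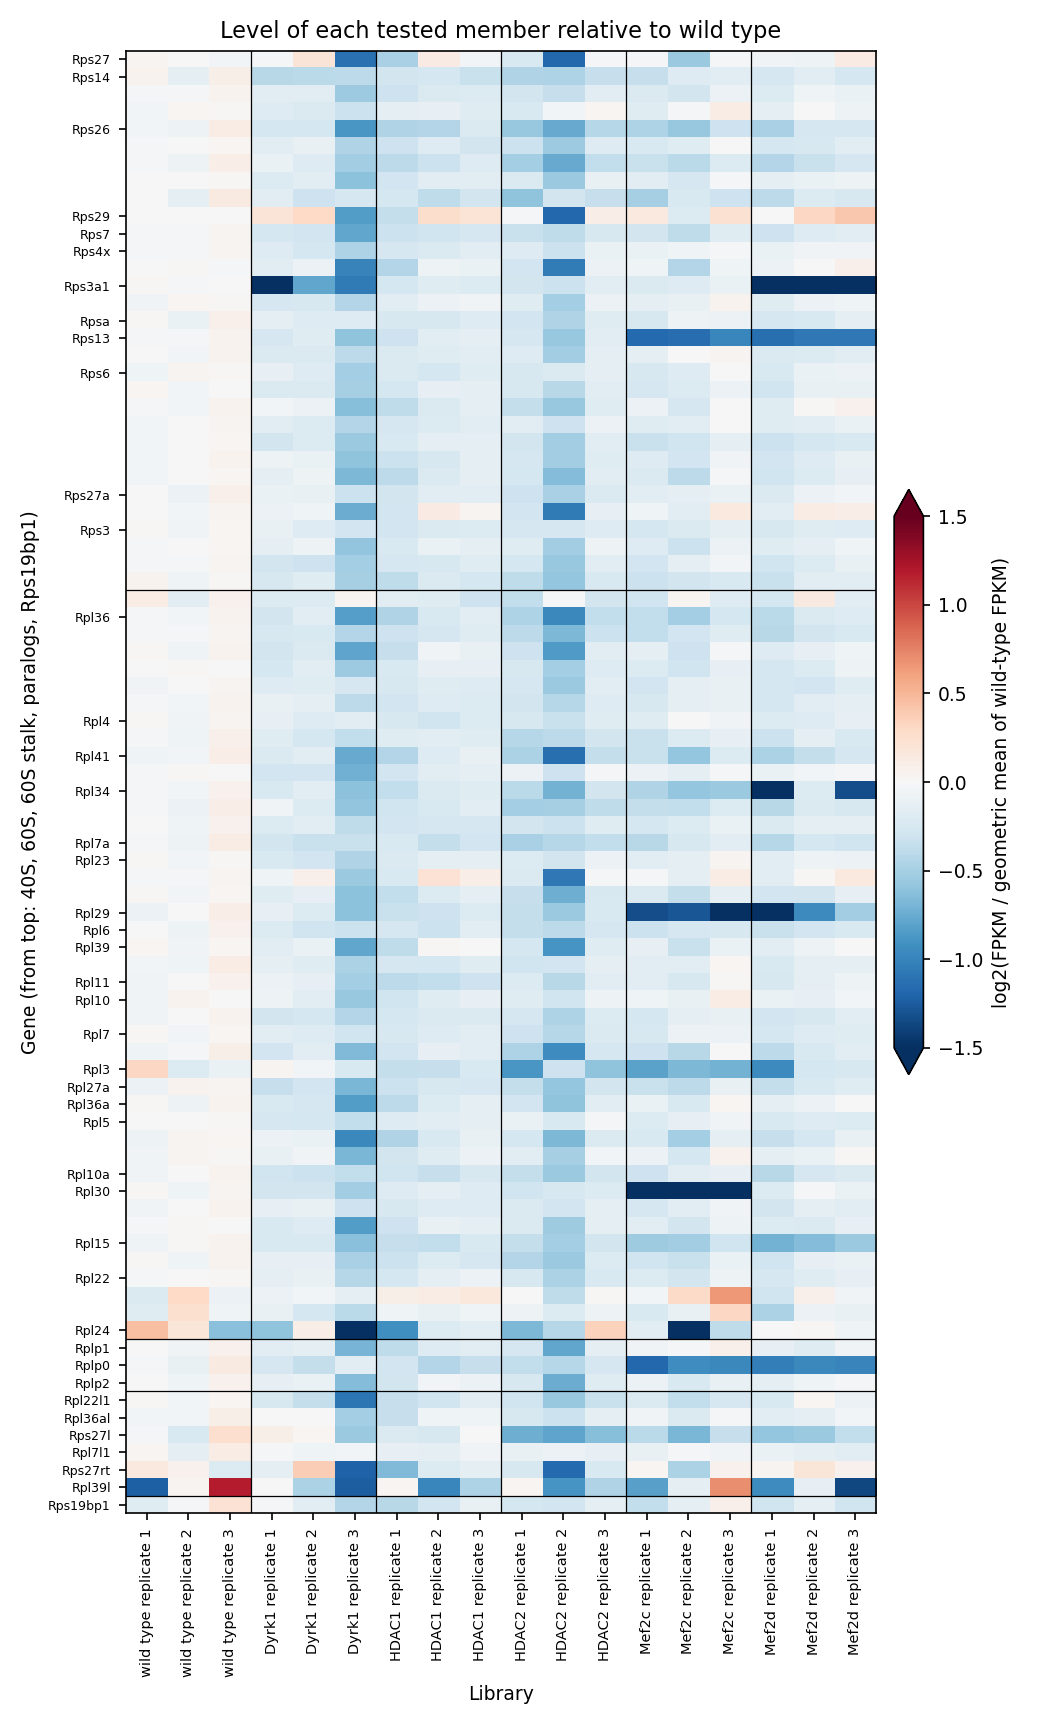
Level of each of the 84 tested members (rows, by subunit and then by wild-type level) in each library (columns), as log2 of FPKM over the geometric mean of the 3 wild-type libraries; blue is lower, red is higher, and the scale ends at -1.5 and 1.5. Members described in the text are named beside their rows. The deletion libraries are mostly pale blue, Dyrk1 replicate 3 and HDAC2 replicate 2 are darker, and Rps3a1, Rps13, Rpl34, Rpl29, Rpl30 and Rplp0 stand out by group.

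Each deletion group was compared with wild type gene by gene with limma on log2(FPKM + 1), over all 12223 genes tested. The question was which members' messages differ when the named gene is targeted in Treg. By limma 0 members were higher than wild type at an adjusted p under 0.05 in each of the 5 comparisons (background: 11.1%, 10.2%, 16.1%, 12.9% and 13.9% of all tested genes were higher in Dyrk1, HDAC1, HDAC2, Mef2c and Mef2d), and 0 at an unadjusted p under 0.05. Of the 84 members, 30 fell in Dyrk1 (background: 6.19% of all tested genes fell), 9 in HDAC1 (background 2.32%), 41 in HDAC2 (background 9.41%), 14 in Mef2c (background 6.06%) and 18 in Mef2d (background 7.95%). The share of members that fell was thus 35.7%, 10.7%, 48.8%, 16.7% and 21.4%. The median member difference was -0.29, -0.23, -0.33, -0.18 and -0.19 in that order, beside medians over all tested genes of 0.02, 0.05, 0.05, 0.04 and 0.04. By subunit, the median was -0.29 for 31 small-subunit and -0.30 for 46 large-subunit members in Dyrk1, -0.22 and -0.23 in HDAC1, -0.32 and -0.34 in HDAC2, -0.18 and -0.18 in Mef2c, and -0.20 and -0.19 in Mef2d. The F test over the 6 groups called 27 of 84 members (32.1%), under the background of 38.6% of all genes.

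**Figure D4:**
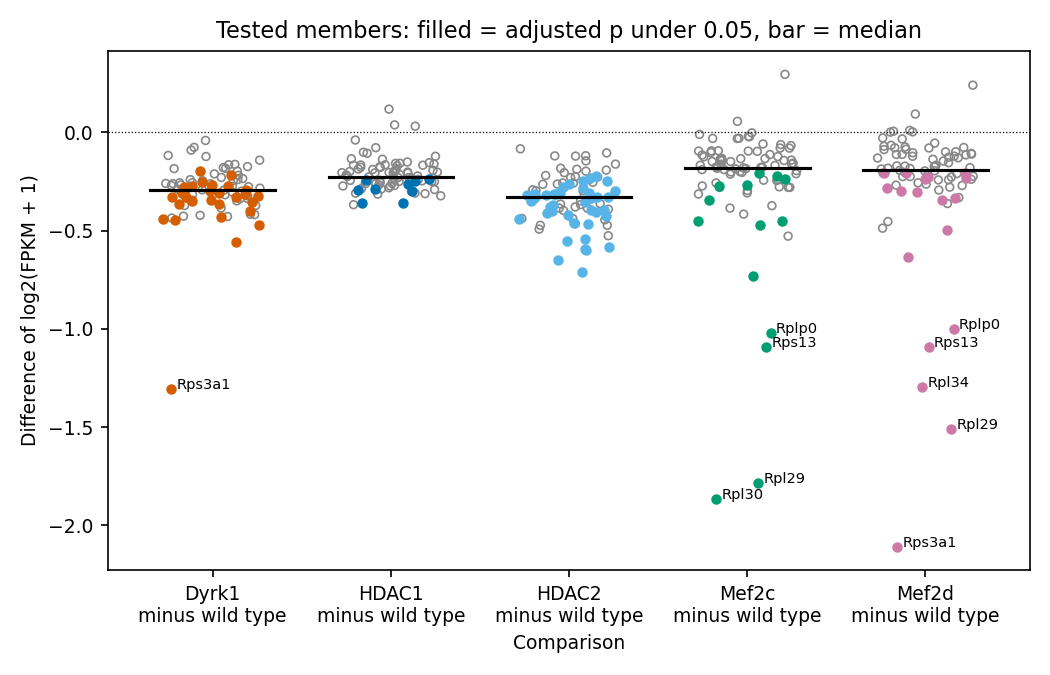
Difference of log2(FPKM + 1) from wild type (vertical axis) for the 84 tested members in each of the 5 comparisons (horizontal axis); filled points passed an adjusted p of 0.05 in limma, open points did not, and bars are medians. The medians lie from -0.18 to -0.33, and named points lie below the rest in Dyrk1, Mef2c and Mef2d.

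In libraries labelled Dyrk1, 14 of 31 small-subunit and 15 of 46 large-subunit members fell, with Rpl22l1 the only one of 6 tested paralogs. Rps3a1, a 40S platform protein (ENSMUSG00000028081, chr3:86137940-86142702), was at 466, 1145 and 946 FPKM in the 3 libraries and 1997, 1947 and 1972 in wild type. All 3 values lay below wild type but they spread over more than 2-fold, and the difference was -1.31 (SE 0.21, adjusted p 0.00181). Reads of a near-identical copy of this gene moved the other way, as described below. Rpl22l1, the paralog that can replace Rpl22, was at 225, 207 and 126 FPKM against 270.5, 258 and 272, a difference of -0.56 (SE 0.16, adjusted p 0.0252). Its lowest value was in Dyrk1 replicate 3, without which the difference was -0.30. Rps26, at the exit of the messenger channel, was at 2559, 2561 and 1679.7 against 2999, 2917 and 3339.8, a difference of -0.47 (SE 0.15, adjusted p 0.0411). Rps7 differed by -0.45 (SE 0.11, adjusted p 0.0139) and Rpl27a by -0.44 (SE 0.11, adjusted p 0.0135), with every Dyrk1 library below every wild-type library. Rpl5, which carries the small large-subunit rRNA and binds Mdm2, was steadier, at 697, 693 and 643 FPKM against 827, 826 and 839.6, a difference of -0.29 (SE 0.06, adjusted p 0.00577). Its partner Rpl11 was at 1033 ± 159 against 1206 ± 46.2 and did not pass (adjusted p 0.136). Without Dyrk1 replicate 3 the differences of Rps26 and Rps7 were -0.27 and -0.28. Of the 29 alternative analyses, 15 lost the call of Rps26, 5 that of Rpl22l1, 2 each those of Rps7 and Rpl27a, and 1 each those of Rps3a1 and Rpl5. Leaving out wild type replicate 1, wild type replicate 3 or Dyrk1 replicate 3 turned the count of 30 into 16, 12 or 13, and it was 0 when the 6 libraries were fitted alone. Rescaling each library to a fixed total, over all genes or over non-members, gave 14 in either case.

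In libraries labelled HDAC1, 9 members fell, 7 of them of the large subunit. Rplp0, the protein on which the stalk is built, was at 2235, 2003 and 2137 FPKM against 2682, 2512 and 3000.4 in wild type, and the difference was -0.36 (SE 0.09, adjusted p 0.0167). Rpl11 was at 915, 933 and 971 against 1164, 1199 and 1256, a difference of -0.36 (SE 0.11, adjusted p 0.0378), and a copy of it was higher in the same libraries. Neither gene overlapped between the groups. Rpl10a (-0.30), Rps14 (-0.29) and Rpl7a (-0.29) followed, each passing the test with separate groups. Rps3, a 40S protein that lines the messenger entry, fell by a smaller but steadier amount, from 669 ± 20.9 to 568 ± 18.3 FPKM, a difference of -0.24 (SE 0.06, adjusted p 0.0157). For Rpl5 the values were 739.9 ± 16.6 against 831 ± 7.72 (adjusted p 0.0777). The count of 9 became 2 or 0 when wild type replicate 1 or replicate 3 was left out, and 1, 1 or 5 when HDAC1 replicate 1, 2 or 3 was. It rose to 28 without Dyrk1 replicate 3 and 14 without HDAC2 replicate 2, which enter through the shared estimate of spread. Of the 29 alternatives, 10 lost the calls of Rpl11, Rps14 and Rpl7a, 6 that of Rpl10a, 5 that of Rplp0 and 3 that of Rps3. It was 33 with median-of-ratios scaling, 3 with either rescaling to a fixed total, 16 with the 6 libraries alone and 43 when the 2 libraries of lowest share were left out.

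Libraries labelled HDAC2 had 15 of 31 small-subunit and 25 of 46 large-subunit members lower, and Rps27l among the paralogs. Rps27l (ENSMUSG00000036781, chr9:66946086-66949516), a paralog of Rps27 that Trp53 is known to induce, was at 50.4, 48.4 and 54.0 FPKM in these libraries and 82.7, 71.3 and 99.7 in wild type. The groups did not overlap, and the difference of -0.71 (SE 0.15, adjusted p 0.00582) was the largest of any member here. It passed in all 29 alternative analyses, with values from -0.91 to -0.58. Rpl41, the shortest ribosomal protein, was at 1271, 807 and 1371 against 1681, 1714 and 1892, a difference of -0.65 (SE 0.19, adjusted p 0.0211). Rpl36 (-0.60), Rps26 (-0.58) and Rpl3 (-0.59), the protein nearest the peptidyl transferase centre, followed. For Rpl41 and Rpl36 the lowest value was in HDAC2 replicate 2, whereas Rpl3 was lowest in replicate 1, at 500.2, 739 and 602 against 1135, 789.9 and 851. Pooled with its near-identical copies, Rpl3 was at 544, 773 and 641 FPKM against 1139, 814 and 880. Rpsa, the laminin-binding 40S protein, fell from 1764 ± 112 to 1429 ± 132 FPKM, a difference of -0.31 (SE 0.08, adjusted p 0.01). Rps27a, made as a fusion with ubiquitin, differed by -0.34 (SE 0.08, adjusted p 0.00902). Rplp0 fell (-0.35, SE 0.09, adjusted p 0.0106), while Rplp1 and Rplp2 were at -0.39 and -0.39 and did not pass. The count of 41 became 13 when wild type replicate 3 was left out and 20 when HDAC2 replicate 2 was, and it was 63 without Dyrk1 replicate 3 and 27 with the 6 libraries alone. Without HDAC2 replicate 2 the difference of Rpl41 was -0.41, and of the 29 alternatives 4 lost its call, 3 those of Rpl36, Rplp0 and Rpsa, 6 that of Rpl3, 2 that of Rpl22, and 1 those of Rps26 and Rps27a.

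In libraries labelled Mef2c, 14 members fell, and 4 of them fell by at least 2-fold. Rpl30, a 60S protein (ENSMUSG00000058600, chr15:34440505-34443640), was at 165, 143 and 173 FPKM in the Mef2c libraries. The wild-type values were 592, 559.9 and 601, and the difference was -1.86 (SE 0.08, adjusted p 3.79e-10). Rpl29, a 60S surface protein (ENSMUSG00000048758, chr9:106429454-106431568), was at 529.9, 547 and 198 against 1253, 1328 and 1424, a difference of -1.78 (SE 0.49, adjusted p 0.0206). Replicate 3 was lower than the other 2. Rps13, a 40S protein near the subunit interface, was at 763, 775 and 863 against 1672, 1676 and 1772, a difference of -1.09 (SE 0.11, adjusted p 1.13e-05). Rplp0 was at 1207, 1432 and 1391 against 2682, 2512 and 3000.4, a difference of -1.02 (SE 0.09, adjusted p 1.42e-06). Each of these 4 genes has a near-identical copy that rose in the same libraries. Of the 10 others that fell, Rpl15 has such a copy too. Rpl3 (525, 572 and 558 FPKM against 1135, 789.9 and 851, difference -0.73, SE 0.18, adjusted p 0.0129) and Rps27l (-0.47, SE 0.15, adjusted p 0.0444) had the largest differences of the rest. Rpl3 is not free of near-identical copies, and pooled with them it was at 570, 644 and 616 FPKM against 1139, 814 and 880. The stalk proteins Rplp1 and Rplp2, which bind Rplp0, were at 4840.1 ± 228 and 1308 ± 65.5 against 4847 ± 206 and 1441 ± 62.3, and did not pass. The count of 14 became 7, 5, 5 and 9 when wild type replicate 1 or 3 or Mef2c replicate 1 or 2 was left out, and 24 without Dyrk1 replicate 3. Rpl30, Rps13 and Rplp0 passed in all 29 alternatives, whereas 2 lost the calls of Rpl29 and Rpl3 and 18 that of Rps27l. It was 6 when the 3 libraries with high B cell markers were dropped, 25 with median-of-ratios scaling, 9 with either fixed total and 35 without the 2 libraries of lowest share.

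In libraries labelled Mef2d, 18 members fell, and again 4 by at least 2-fold. Rps3a1 was at 424, 488 and 459.5 FPKM in the Mef2d libraries and 1997, 1947 and 1972 in wild type, a difference of -2.11 (SE 0.21, adjusted p 1.64e-05). Its 3 values were close together, and it passed in all 29 alternative analyses. Rpl34, a 60S protein (ENSMUSG00000062006, chr3:130726831-130730398), was at 327, 1435 and 657 against 1639, 1605 and 1729.8, a difference of -1.29 (SE 0.34, adjusted p 0.0162). Replicate 2 was near wild type and the other 2 far below. Rpl29 was as uneven, at 159, 689 and 930.3 against 1253, 1328 and 1424, a difference of -1.51 (SE 0.49, adjusted p 0.0406). Rps13 was at 781, 810.2 and 812 and Rplp0 at 1323, 1395 and 1372, with differences of -1.09 (SE 0.11, adjusted p 1.66e-05) and -0.999 (SE 0.09, adjusted p 2.81e-06). Rps27l was at 56, 57.1 and 64.8 FPKM (-0.49, SE 0.15, adjusted p 0.0336). Rpl7a, Rpl10a, Rpl6, Rpl5 and Rps3 fell by 0.33, 0.30, 0.28, 0.21 and 0.21 on the log2 scale. These members are outside the set with changed copies described below, but most are not free of copies. Of the exact stretches compared there, Rpl10a shares 87.1% with other annotated genes, Rpl7a 73.5%, Rpl6 54.2% and Rpl5 47.2%. Rps27l and Rps3 share none. Rps3a1 lies 2.00 Mb and Rpl34 42.6 Mb from Mef2d on chromosome 3. Rps27, 2.07 Mb from Mef2d, was at 8253, 8156 and 9359 FPKM against 8785, 8622 and 8294. The count of 18 became 8, 6, 6 and 11 when wild type replicate 1 or 3 or Mef2d replicate 1 or 2 was left out. Without replicate 1 the differences of Rpl29 and Rpl34 were -0.73 and -0.77, and of the 29 alternatives 15 and 4 lost their calls, 7 that of Rps27l, 5 that of Rpl10a, 9 that of Rpl5 and 6 that of Rps3. It was 6 when the 3 libraries with high B cell markers were dropped, 29 with median-of-ratios scaling, 9 and 8 with the fixed totals over all genes and over non-members, and 41 without the 2 libraries of lowest share.

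The strongest single-gene differences were mirrored in near-identical copies of the same genes. Ribosomal protein genes have many processed pseudogenes, intron-less copies of their messages inserted elsewhere in the genome. Of the 86 members, 77 share at least one exact 100-base stretch of their main transcript with another annotated gene, and in 26 over 50% of such stretches are shared. Among 364 sharing non-member genes in the table, 12 differed at least 10-fold between the highest and lowest group mean and reached 10 FPKM, and these are copies of 8 members: Rps3a1, Rpl30, Rplp0, Rps13, Rpl34, Rpl29, Rpl15 and Rpl11. They were chosen after their values were seen. Every member that fell by at least 2-fold from wild type in any comparison is in this set: Rps3a1 in Dyrk1, 4 members in Mef2c and 4 in Mef2d.

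The coding sequences of member and copy differ at few bases. Rps3a1 and Rps3a3 are 98.99% identical over the coding sequence (8 mismatches), Rplp0 and Gm8730 98.74% (12), Rps13 and Rps13-ps1 99.56% (2) and Rpl34 and Rpl34-ps1 99.43% (2). For each of these pairs a 90-base stretch of the coding strand with the most mismatches is shown. Within the stretch those mismatches are the only letters that tell member and copy apart. Capitals mark the mismatched bases, and the sequences are those of the GENCODE M21 transcripts on mm10, 5′ to 3′.
Rps3a1: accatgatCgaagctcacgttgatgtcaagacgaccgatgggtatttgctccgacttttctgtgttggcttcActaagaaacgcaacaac
Rps3a3: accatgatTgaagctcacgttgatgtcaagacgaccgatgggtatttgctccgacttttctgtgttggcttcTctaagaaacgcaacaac
Rplp0: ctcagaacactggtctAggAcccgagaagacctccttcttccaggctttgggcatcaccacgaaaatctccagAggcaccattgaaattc
Gm8730: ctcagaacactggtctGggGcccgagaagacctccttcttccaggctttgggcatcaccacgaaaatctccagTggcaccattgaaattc
Rps13: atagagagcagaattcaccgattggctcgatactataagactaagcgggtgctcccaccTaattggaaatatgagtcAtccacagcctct
Rps13-ps1: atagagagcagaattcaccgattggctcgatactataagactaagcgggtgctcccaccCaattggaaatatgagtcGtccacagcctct
Rpl34: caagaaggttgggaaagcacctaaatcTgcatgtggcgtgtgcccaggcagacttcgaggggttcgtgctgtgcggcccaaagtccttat
Rpl34-ps1: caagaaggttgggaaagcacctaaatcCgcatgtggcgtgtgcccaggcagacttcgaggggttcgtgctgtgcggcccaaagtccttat

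Rps3a3 (chr13:108670603-108671397) was at 867, 442 and 276 FPKM in the Dyrk1 libraries and 740.5, 766 and 864 in the Mef2d libraries. It was at 1.20 to 2.82 in the other 12 libraries. Where Rps3a1 was lowest among the Dyrk1 libraries (replicate 1, 466 FPKM) Rps3a3 was highest. A second copy, Rps3a2, was at 187, 89.6 and 61.4 and 168, 154 and 162 in these groups and 2.88 to 5.52 elsewhere. The differences of Rps3a3 from wild type were 7.55 (SE 0.29, adjusted p 5.16e-10) in Dyrk1 and 8.29 (SE 0.29, adjusted p 4.49e-11) in Mef2d.

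Gm12191, the copy of Rpl30 (chr11:49678710-49679057), was at 1434, 1760.5 and 1784 FPKM in the Mef2c libraries and 16.8 to 31.6 in the other 15, a difference from wild type of 6.07 (SE 0.15, adjusted p 4.48e-13). Gm8730, a copy of Rplp0 (chr8:102864845-102865798), was at 712, 794 and 866 in Mef2c and 769, 756 and 795 in Mef2d libraries, and 2.91 to 5.5 in the rest. Another copy of Rplp0, Gm9625, was at 201 to 241 in the 6 Mef2c and Mef2d libraries and 0.484 to 1.53 elsewhere. Rps13-ps1 (chr8:87047689-87048226) gave 395, 289 and 319 and 353, 348 and 428 against 3.46 to 5.51. In all 4 cases the high libraries were those in which the member was low, and the ranges did not overlap.

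In the Mef2d libraries the same held library by library for Rpl34, but not in Mef2c. Rpl34-ps1 (chr6:71124610-71124963) was at 998, 11.7 and 764 FPKM in the Mef2d libraries, where Rpl34 was at 327, 1435 and 657. Replicate 2, with Rpl34 near wild type, was also the one with the copy at the wild-type level of 9.37 to 12.2. In Mef2c libraries the copy was at 167, 102 and 258 and Rpl34 at 1208, 1112 and 1130.3. The copies of Rpl29 were less abundant: Gm8210 was at 34.4, 45.9 and 92.5 in Mef2c and 50.9, 35.1 and 16.7 in Mef2d libraries and at most 0.335 elsewhere. Within each group the library with the lowest Rpl29 had the highest Gm8210. Gm10020, a copy of Rpl15, was at 47.6 to 91.9 FPKM in Mef2c and Mef2d libraries and 0.265 to 0.946 in the others. Rpl11, 6.51 Mb from Hdac1 on chromosome 4, has the copy Gm10036, which was at 140.1, 204 and 212 FPKM in HDAC1 libraries and 1.90 to 3.82 in the other 15.

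**Figure D5:**
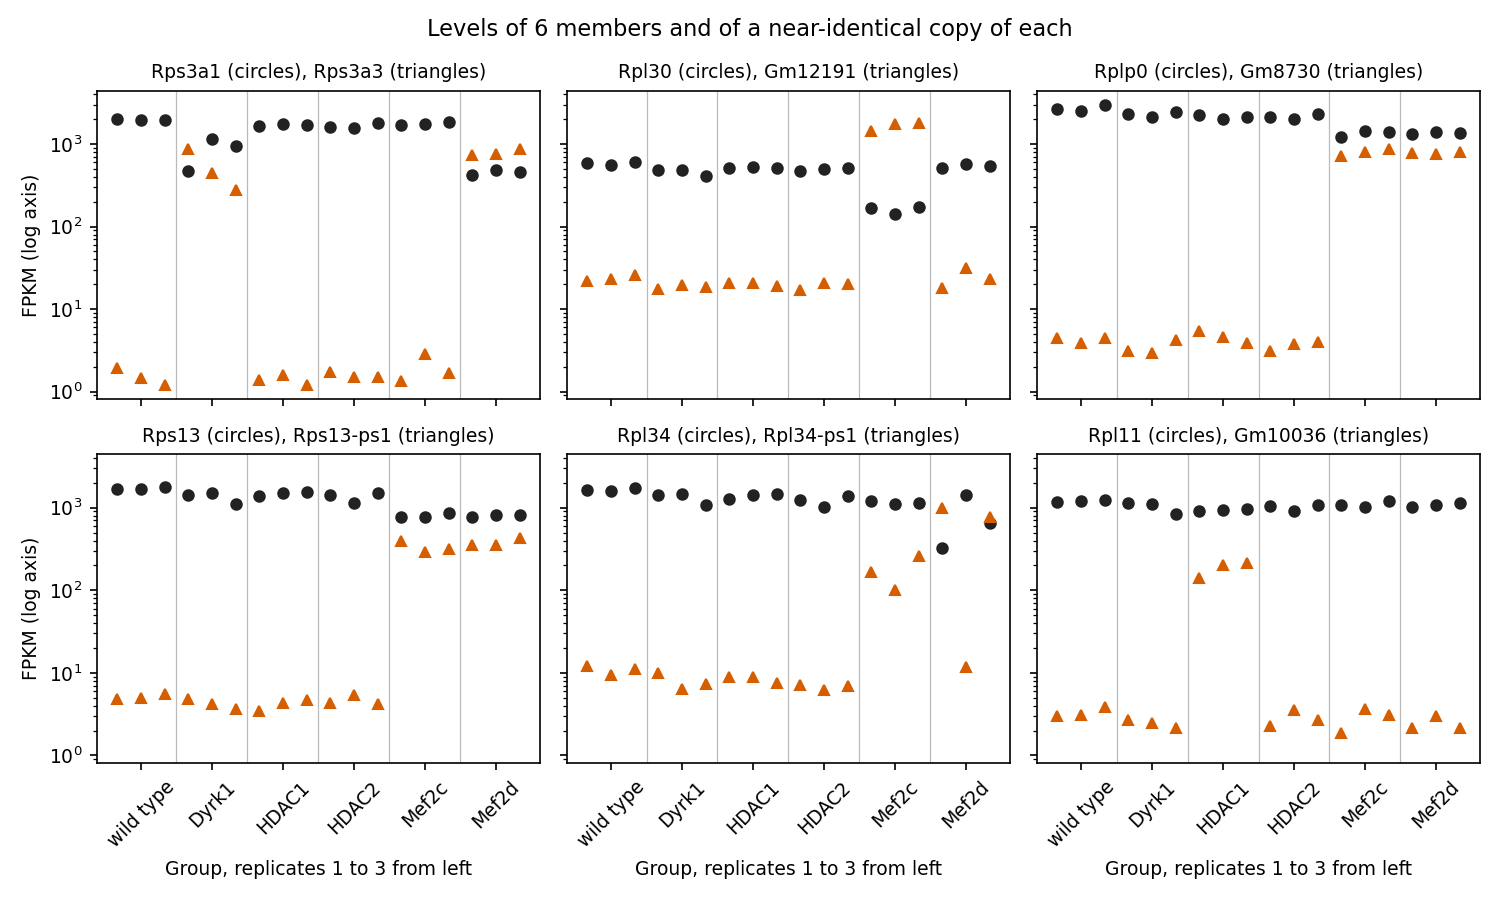
Level (vertical axis, FPKM, log scale) of 6 members (circles) and of a near-identical copy of each (triangles) in the 18 libraries, ordered by group and replicate (horizontal axis). In the groups where a copy is high the member is lower, and for Rpl34 in Mef2d this holds by library, replicate 2 having 1435 FPKM of the member and 11.7 of the copy.

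Few bases separate the pairs, and how reads were assigned is not given in the sources used here, so both levels are uncertain. When the fragments of each member and its copies were added together, part of the difference went for some members and nearly all of it stayed for others. Pooled Rps3a1 was at 1164, 1237 and 1295 FPKM in Mef2d against 2003, 1952 and 1978 in wild type, and pooled Rpl30 at 332, 347 and 379 in Mef2c against 595, 563 and 604. Pooled Rplp0 was at 1732, 2028 and 2021 in Mef2c and 1889.7, 1953 and 1954 in Mef2d against 2685, 2515 and 3004. Rps3a1 in Dyrk1 went from -1.31 to -0.53 on the log2 scale, with pooled means of 1375 ± 183 FPKM against 1978 ± 25.7. Pooling changed other members little: Rps13 was at 868 ± 51.7 in Mef2c and 877 ± 22.9 in Mef2d against 1709.5 ± 56.2, Rpl29 at 463 ± 181 in Mef2c against 1337 ± 85.9, and Rpl34 at 886 ± 500.0 in Mef2d against 1659.9 ± 64.6. The assignment of reads was not tested, nor was any other source of these differences. With the pooled values 31, 8, 42, 15 and 18 members fell in Dyrk1, HDAC1, HDAC2, Mef2c and Mef2d. The other 76 tested members had a median difference of -0.29, -0.22, -0.32, -0.18 and -0.18 in that order, with 26, 7, 37, 9 and 12 called lower. These 76 are not free of copies: Rpl3, called lower in HDAC2 and Mef2c, is among them because its copies did not meet both limits.

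Between the 2 histone deacetylase labels no member passed the test in limma (background: 1.06% of all genes higher and 0.442% lower in HDAC1), and 7 members had an unadjusted p under 0.05. The median difference, HDAC1 minus HDAC2, was 0.10. Rps27l had the smallest p, at 71.9, 70.7 and 83.6 FPKM in HDAC1 and 50.4, 48.4 and 54.0 in HDAC2 libraries, with separate groups and a difference of 0.55 (SE 0.15, adjusted p 0.0995). Rps27l passed when Dyrk1 replicate 3 was left out (adjusted p 0.026) and when the 6 libraries were fitted alone. Between the Mef2 labels 1 member was lower in Mef2c and 1 higher (background: 1.46% lower and 1.60% higher). These were Rpl30, with a difference of -1.75 (SE 0.08, adjusted p 1.24e-09), and Rps3a1, with 1.94 (SE 0.21, adjusted p 4.8e-05), both among the genes with copies described above. Most members differed little, with an interquartile range of -0.05 to 0.05 over the 84 members.

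A few members with separate roles can be set beside these. Rps6, the target of S6 kinase, was at 1453 ± 54.4 FPKM in wild type and between 1206 and 1322 in the deletion group means, and passed in none of the 5 comparisons. Rpl23, which like Rpl5 and Rpl11 binds Mdm2, fell in Dyrk1 (-0.33, SE 0.07, adjusted p 0.0103) and in the other comparisons had differences from -0.19 to -0.09. The X-linked Rps4x fell in Dyrk1 (-0.31, SE 0.07, adjusted p 0.0138). Rpl22, a repressor of its paralog Rpl22l1, fell in HDAC2 (-0.31, SE 0.09, adjusted p 0.0189), where Rpl22l1 was at -0.40 (adjusted p 0.0737). Rps27, Rpl36a, Rpl36al, Rpl39 and Rpl7l1 passed in no comparison, and neither did Rps19bp1, at 31.3 ± 4.5 FPKM in wild type. For Rps27 the SE of 0.32 limits what could be seen.

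Other genes of protein synthesis were followed in lists, to be read against the shares of all tested genes that rose or fell given above. Of 19 translation genes whose messages carry the TOP motif, 4, 8, 13, 4 and 10 fell in Dyrk1, HDAC1, HDAC2, Mef2c and Mef2d and 0 rose (0 also at an unadjusted p under 0.05), with medians of -0.14, -0.23, -0.27, -0.12 and -0.24. The falls were 21.1%, 42.1%, 68.4%, 21.1% and 52.6% of the list, beside 6.19%, 2.32%, 9.41%, 6.06% and 7.95% of all genes. Npm1, the nucleolar chaperone nucleophosmin, was at 524 ± 35.9 FPKM in HDAC2 against 738 ± 88.4 in wild type (-0.49, SE 0.10, adjusted p 0.00452). Npm1 passed as lower in Dyrk1 (-0.32), HDAC1 (-0.37), Mef2c (-0.32) and Mef2d (-0.42) as well. Of 33 initiation factors, 3, 7, 17, 7 and 15 fell in the same order, and 1 rose in each of HDAC1 and Mef2d. In this list the falls were 9.09%, 21.2%, 51.5%, 21.2% and 45.5%, the first being near the 6.19% of all genes in Dyrk1. Eif5a, an elongation and termination factor in spite of its name, fell in HDAC2 (-0.47, SE 0.10, adjusted p 0.00634), Mef2c (-0.32, SE 0.10, adjusted p 0.0438) and Mef2d (-0.44, SE 0.10, adjusted p 0.00947). Rack1, a scaffold on the small subunit outside the members, fell in Dyrk1, HDAC1, HDAC2 and Mef2d, to 357 ± 10.3, 364 ± 5.19, 369 ± 19.4 and 371 ± 7.80 FPKM from 433 ± 15.4. Of 76 mitochondrial ribosomal proteins, 6, 3, 14, 1 and 12 fell, and 1 rose in Mef2c, with medians of -0.17, -0.17, -0.23, -0.13 and -0.19. These falls were 7.89%, 3.95%, 18.4%, 1.32% and 15.8% of the list, beside 6.19%, 2.32%, 9.41%, 6.06% and 7.95% of all genes, so that in Dyrk1 and HDAC1 the list was near the background and in Mef2c under it. Mrpl23, a large-subunit protein, fell in Dyrk1 (-0.32, SE 0.06, adjusted p 0.00567) and HDAC1 (-0.31, SE 0.06, adjusted p 0.0102).

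Of 53 genes of ribosome biogenesis, 9, 4, 11, 5 and 10 fell in Dyrk1, HDAC1, HDAC2, Mef2c and Mef2d, and 0, 2, 3, 1 and 1 rose. The falls were 17%, 7.55%, 20.8%, 9.43% and 18.9% of the list, beside 6.19%, 2.32%, 9.41%, 6.06% and 7.95% of all genes. The rises were 0%, 3.77%, 5.66%, 1.89% and 1.89%, under the 11.1%, 10.2%, 16.1%, 12.9% and 13.9% of all genes. Among those that rose was Mdn1, the giant ATPase that strips assembly factors from the large subunit, at 16.6 ± 0.506 FPKM in HDAC1 against 9.15 ± 0.930 (0.80, SE 0.15, adjusted p 0.00704). Mdn1 passed as higher in HDAC2 (0.80), Mef2c (0.53) and Mef2d (0.77) as well. Nhp2, a protein of the pseudouridine-forming particles, fell in HDAC2 (-0.58, SE 0.10, adjusted p 0.00285), Mef2c (-0.49, SE 0.10, adjusted p 0.00433) and Mef2d (-0.50, SE 0.10, adjusted p 0.00432). Of 10 chaperones and importins of ribosomal proteins, 1, 0, 1, 1 and 2 fell, and 1, Tnpo1, rose in HDAC1. The falls were 10%, 0%, 10%, 10% and 20% of this short list, and the rise in HDAC1 was 10%, beside 10.2% of all genes. The 25 tested genes of mTORC1 and MYC control gave 7, 4, 5, 2 and 3 rises and 2, 0, 0, 0 and 0 falls (4, 2, 1, 1 and 2 at an unadjusted p under 0.05). The rises were 28%, 16%, 20%, 8% and 12% of the list beside 11.1%, 10.2%, 16.1%, 12.9% and 13.9% of all genes, near the background outside Dyrk1. Sesn2, a sensor of leucine that restrains mTORC1, was at 15.5 ± 2.80 FPKM in Dyrk1 against 3.60 ± 0.0534 in wild type (1.83, SE 0.12, adjusted p 4.36e-07). In the same libraries Akt1s1 of this list fell (-0.40, SE 0.10, adjusted p 0.0171). Sesn3 passed as higher in Dyrk1 (0.55), HDAC1 (0.45), HDAC2 (0.47) and Mef2d (0.45). Mdm2 rose in Mef2c (0.25, SE 0.05, adjusted p 0.00209) and Mef2d (0.28, SE 0.05, adjusted p 0.00146). Tsc1, another restraint on mTORC1, rose in HDAC1 (0.44, SE 0.09, adjusted p 0.0103), HDAC2 (0.42, SE 0.09, adjusted p 0.00631), Mef2c (0.32, SE 0.09, adjusted p 0.0274) and Mef2d (0.37, SE 0.09, adjusted p 0.0131), and Mtor itself in HDAC1 and HDAC2.

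Promoters of 66 members were in the RefSeq table on GRCm38.p6, each covering the 250 bases before and 50 after the annotated start. A run of at least 8 pyrimidines (C or T) that opens with C within 10 bases of the start, as in TOP messages, was found in 21 of the 66 (31.8%) and in 8.09% of all 27025 gene symbols in the table. A symbol was counted if any of its promoters matched. The word CTTTCC on the gene's strand, from 15 before to 25 after the start, was found in 16.7% of members and 2.27% of all. CCGGAAG, a binding word of ETS-family factors, was found on either strand in 39.4% of members and 9.93% of all, and TATAAA in the 50 bases before the start on the gene's strand in 1.52% and 3.15%. These are matches of letters and were not tied to the differences above. The most abundant member, a member named above for Dyrk1 and HDAC2, and the member with the largest difference in HDAC2 are shown from 60 bases before to 30 after the start, 5′ to 3′ on the gene's strand (Rps27 chr3:90213619-90213708, minus strand; Rps26 chr10:128626477-128626566, minus strand; Rps27l chr9:66946026-66946115, plus strand). Capitals mark the pyrimidine run, and Rps27l has none that starts within 10 bases of the annotated start.
Rps27: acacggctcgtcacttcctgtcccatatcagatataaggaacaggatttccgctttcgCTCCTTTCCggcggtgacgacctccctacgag
Rps26: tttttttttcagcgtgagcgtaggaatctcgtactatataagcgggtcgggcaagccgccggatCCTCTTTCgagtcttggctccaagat
Rps27l: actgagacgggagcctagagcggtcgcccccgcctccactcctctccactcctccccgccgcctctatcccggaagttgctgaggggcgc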

How the data were processed

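Members and gene lists were chosen with earlier results of these data known. The authors deposited 1 table with 1 column per sample; the submitters' processing notes name mm10, STAR and HTSeq but give no version, strandedness or gene annotation. The deposited values were treated as FPKM: the unit is not named, and it was read from the values. Low genes times exon-union length fell on whole reads (within 0.02) for 44.4% to 47.2% of genes at the best factor per library, which gave the depth. Symbols were found for 34490 of 35275 identifiers.

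Genes reaching 1 FPKM in 3 or more libraries were tested on log2(FPKM + 1) with limma 3.58.1 in R 4.3.3, with 1 mean per group over all 18 libraries, 12 residual degrees of freedom and a variance trend. Adjusted p-values are Benjamini-Hochberg over 12223 genes (threshold 0.05, no minimum fold), and the fit was tested on simulated data. The simulated noise was independent for each gene, so that test does not cover shifts shared by many members of a library. Log2 differences of FPKM + 1 understate changes of low genes. Named were up to 5 members per comparison with the largest change among those that passed with separate groups, members of fixed roles, and up to 3 genes per other list. Copies were found by exact 100-base windows of GENCODE M21 transcripts. Scaling, pseudocount, filter, length and GC trends, libraries and a replicate block were varied. Same-numbered replicates did not deviate together on average. Promoter sequences are from RefSeq (GRCm38.p6). Some items are not reported here.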

Additional observations from a re-analysis of the deposited data

How the results depend on the processing

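All counts here are of members with an adjusted p under 0.05 in limma. The median over members stayed below 0 in all comparisons with wild type under every alternative run. Counts that moved by over 1.5 times were as follows, the cause being tested in no case. Median-of-ratios scaling gave 33, 25 and 29 lower members in HDAC1, Mef2c and Mef2d (main analysis 9, 14 and 18) and 47 by the F test (27). Rescaling to a fixed total over all genes gave 14, 3, 9 and 9 in Dyrk1, HDAC1, Mef2c and Mef2d, and over non-members 14, 3, 9 and 8. Without a filter on low values 7, 1, 19, 7 and 9 members were lower in Dyrk1, HDAC1, HDAC2, Mef2c and Mef2d, 9 passed the F test, and 1, Rpl3l, was higher in Mef2c; its highest level in any library was 0.388 FPKM. Removing trends on length and GC content gave 19 in HDAC1. Dropping the 3 libraries with high B cell markers, Mef2c and Mef2d each gave 6. With the 6 libraries of a comparison alone the counts were 0, 16 and 27 in Dyrk1, HDAC1 and HDAC2, and 1, Rps27l, was higher in HDAC1 than in HDAC2. Leaving out the 2 libraries of lowest share, chosen after seeing the data, gave 19, 43, 35 and 41 in Dyrk1, HDAC1, Mef2c and Mef2d. Leaving out 1 library at a time gave 12 to 38 lower members in the Dyrk1 comparison, 0 to 28 for HDAC1, 13 to 63 for HDAC2, 5 to 24 for Mef2c, 6 to 27 for Mef2d, 9 to 41 by the F test, 0 to 1 higher in HDAC1 than in HDAC2 (Rps27l, without Dyrk1 replicate 3), and 1 to 2 higher members in Mef2c against Mef2d, the added gene being Rpl34 without Mef2d replicate 2.

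Same-numbered libraries did not deviate together on average, with a mean correlation of -0.0003 beside 0.001 for different numbers. Of 45 pairs of same-numbered libraries 18 had deviations correlated over 0.1, with a range of -0.45 to 0.46. The 3 libraries with high B cell markers were all replicate 1, of Dyrk1, Mef2c and Mef2d. Shared handling of some same-numbered libraries was not tested. The replicate block gave 23, 8, 37, 10 and 13 lower members, and 20 by the F test, none moved by over 1.5 times. Copies pooled with their members, added after seeing the data, moved no count by over 1.5 times, but the difference of Rps3a1 went to -0.53 in Dyrk1 and -0.68 in Mef2d, that of Rpl30 to -0.74 in Mef2c, and that of Rplp0 to -0.50 in both Mef2c and Mef2d. Between the Mef2 labels pooled Rpl30 and Rps3a1 differed by -0.63 and 0.52. Of 74 calls of members named in the text, 18 held in all 29 alternatives and 0 reversed. Low levels limit Rpl39l, Rpl3l and Rpl10l, and sequence shared with other genes limits Rpl24.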
